A study of Homo sapiens with 20 samples.

Results

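The 37 genes of the human mitochondrial genome were described in hTCEpi, a corneal epithelial line of human origin that telomerase made immortal, after exposure to SPARC. The genes were taken as those whose symbol starts with MT-, and they are 37 of the 60671 genes in the table of counts. Their annotated types divide them into 13 mRNA genes, 2 rRNA genes and 22 tRNA genes. SPARC is a secreted matricellular glycoprotein that binds collagen. Recombinant human SPARC was added to the keratinocyte medium at 0 µg/ml (control), 0.05 µg/ml (SPARC 0.05), 0.5 µg/ml (SPARC 0.5) or 5 µg/ml (SPARC 5) for 24 hours, with 5 samples in each of the 4 groups. All 20 samples are of the same immortalized line, and the labels do not say whether the samples of a group came from separate cultures, so p-values measure the spread between these samples, which may be technical.

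The mitochondrial genome is a small circular DNA present in many copies per cell. Both of its strands are transcribed into long RNAs by the polymerase POLRMT with the factors TFAM and TFB2M, and enzymes that cut at the tRNAs release the mRNAs and rRNAs between them. The mRNAs encode core subunits of respiratory complexes I, III and IV and of the ATP synthase (complex V), and are translated by a ribosome whose proteins are all encoded in the nucleus. Corneal epithelial cells depend on glycolysis as well as on this respiratory chain for energy. In bulk RNA, fewer mitochondrial genomes per cell and less RNA per genome cannot be told apart.

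Several features of these genes set what a count can mean, and the sequences that carry them come from GENCODE v29 on GRCh38. The first is that neighbouring mRNA genes overlap, so that a read there belongs to both. MT-ATP8 and MT-ATP6 share 46 bases, and MT-ND4L and MT-ND4 share 7, in capitals below with flanking bases in lower case (chrM:8517-8582 and chrM:10740-10786, plus strand).
MT-ATP8 and MT-ATP6: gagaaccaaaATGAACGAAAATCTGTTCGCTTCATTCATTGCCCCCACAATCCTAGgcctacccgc
MT-ND4L and MT-ND4: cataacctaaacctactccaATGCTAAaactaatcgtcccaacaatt
The second is that the nuclear genome holds copies of mitochondrial sequence. The copy with the highest level here, MTATP6P1 on chromosome 1, aligned with all 681 bases of MT-ATP6 with 10 mismatches, an identity of 98.5%. The first 90 bases of both hold 1 differing base, in capitals (chrM:8527-8616 and chr1:633696-633785, plus strands).
MT-ATP6: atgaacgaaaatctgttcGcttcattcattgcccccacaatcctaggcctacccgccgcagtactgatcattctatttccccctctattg
MTATP6P1: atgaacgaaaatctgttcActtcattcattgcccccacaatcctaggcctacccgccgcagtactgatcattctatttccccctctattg
The third is that the tRNA genes are far shorter than the mRNA genes. The genes below are MT-TP, which alone of the 22 had enough counts to test, its neighbour MT-TT on the other strand, and MT-TM, which had counts mainly in 1 sample. Their anticodons are in capitals (chrM:15956-16023, minus strand, chrM:15888-15953, plus strand, and chrM:4402-4469, plus strand).
MT-TP: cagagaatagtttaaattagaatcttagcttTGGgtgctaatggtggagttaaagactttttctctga
MT-TT: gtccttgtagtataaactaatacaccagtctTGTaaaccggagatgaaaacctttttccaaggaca
MT-TM: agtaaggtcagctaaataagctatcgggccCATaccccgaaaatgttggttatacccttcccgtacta

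Counts per sample summed to between 31955358 and 50112286, and the mitochondrial genome supplied between 3.04% and 3.95% of them. The epithelial keratin KRT5 was at 11270 CPM (counts scaled to library size with trimmed mean of M values factors) over all samples, between 10820 and 11670, and the basal factor TP63 was at 274 CPM. PAX6 was at 7.56 CPM and KRT3 at 1.61 CPM, and KRT12, the defining keratin of differentiated corneal epithelium, was at 0 in 14 of 20 samples. The stromal marker KERA was at 0 in all 20 samples, and the leukocyte gene PTPRC was at 0 in 14. Other markers of such cells had low counts. The stromal gene COL1A1 was at 4.93 CPM, between 2.9 and 7.13, and the immune gene CD68 was at 0.214 CPM and at 0 in 1 sample. The melanocyte genes MLANA and PMEL were at 1.57 and 1.70 CPM. SPARC 5 replicate 2 stood apart from the other samples in the mitochondrial mRNAs, and results that rest on it are given with and without it. In the other direction, SPARC 5 replicate 1 was the highest of its group in every mitochondrial mRNA.

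The 13 mRNAs differed widely in level, and their order was equal in all 4 groups. Per kilobase of gene, the subunits of cytochrome c oxidase (complex IV) led. In control, MT-CO2 was at 6432 ± 185 CPM per kb (mean ± SD, n = 5), MT-CO1 at 5718 ± 199 and MT-CO3 at 5399 ± 208. The ranges of the control samples for MT-CO1 and MT-CO3 overlapped, so that these neighbours in the order were not separated by the replicate spread. MT-ATP6, a membrane subunit of the ATP synthase, was at 4061 ± 170 CPM per kb. Next came MT-ND4 at 3270 ± 122 CPM per kb and MT-ND1 at 2627 ± 82.4 CPM per kb, both membrane subunits of complex I, and MT-CYB, the cytochrome b of complex III, at 2319 ± 28.1 CPM per kb. The control ranges of none of these 4 genes met.

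Lower in the order, MT-ND5 was at 1701 ± 34.5 CPM per kb and MT-ND2 at 1620 ± 24.8, and their control ranges overlapped. MT-ND3 was at 971 ± 42.6 CPM per kb, MT-ND4L at 688 ± 43.3 and MT-ND6, the sole mRNA encoded on the opposite strand from the rest, at 573 ± 33.4. All 5 are subunits of complex I. MT-ATP8, the smallest ATP synthase subunit encoded here, was lowest at 384 ± 34.8 CPM per kb, 16.8-fold below MT-CO2. MT-ATP8 is 207 bases long and 46 of these are shared with MT-ATP6, and how reads in an overlap were counted is not given in the sources used here.

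**Figure D1:**
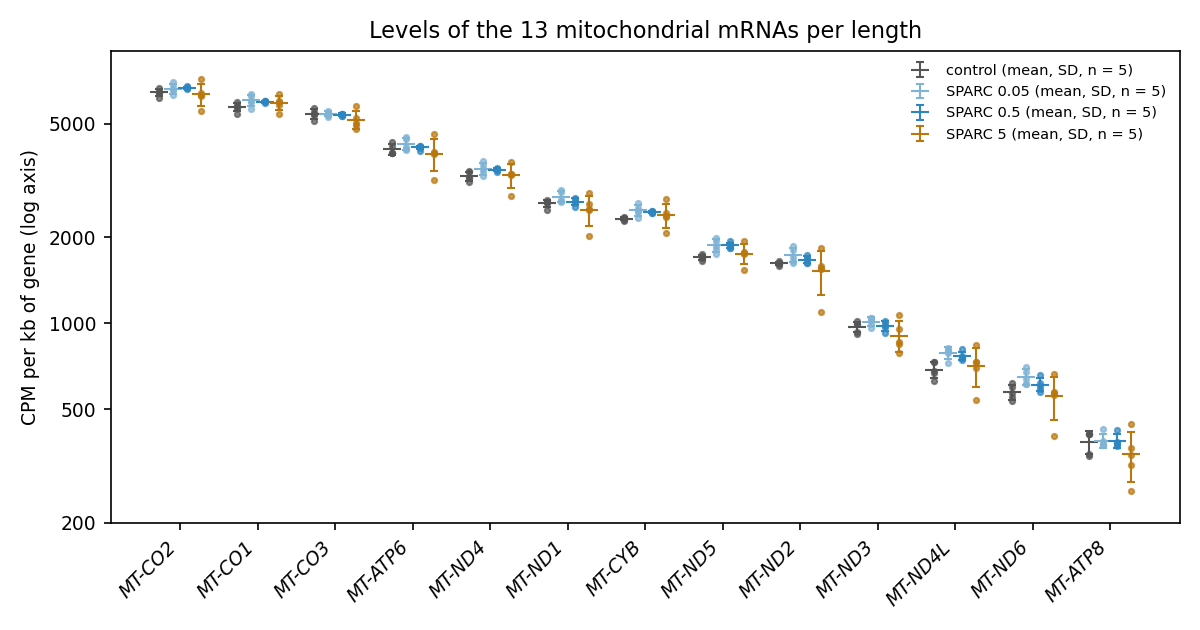
Level of each mitochondrial mRNA per kilobase of gene (CPM per kb, log axis) in the 4 groups. Points are samples, and bars give the mean and SD of 5 samples. The order from MT-CO2 to MT-ATP8 is the same in every group, and the lowest point of SPARC 5 at each gene is replicate 2.

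Grouped by complex, subunits of complex IV took 49.05 ± 0.303% of the mitochondrial mRNA counts in control (SD, n = 5), complex I 35.5 ± 0.309%, complex V 8.00 ± 0.188% and complex III 7.44 ± 0.114%. The means of complex IV in the SPARC 0.05, SPARC 0.5 and SPARC 5 groups were 48.3 ± 0.437%, 48.6 ± 0.348% and 49.4 ± 1.28%. Those of complex I were 36.2 ± 0.325%, 36.0 ± 0.357% and 35.2 ± 0.924%. The wide spread at SPARC 5 came from replicate 2, with 33.6% for complex I and 51.6% for complex IV. Over the other 4 samples of that group complex I was 35.6 ± 0.0924% and complex IV 48.8 ± 0.375%, each within 1 percentage point of the control mean.

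No mitochondrially encoded gene passed the test against control at any dose. The test was edgeR's quasi-likelihood F-test in a model of all 4 groups, with Benjamini-Hochberg adjustment over 22938 tested genes and a call at an adjusted p under 0.05. By it, 0 of the 16 members tested were called at SPARC 5, where 11.6% of all genes tested were called. At SPARC 0.5 the count was 0 of 16 beside 2.25% of all genes, and at SPARC 0.05 it was 0 of 16 beside 0.266%. At an unadjusted p under 0.05, 0 of the 16 passed at the highest dose, 1 at SPARC 0.5 and 2 at the lowest dose. The 16 are the 13 mRNAs, both rRNAs and MT-TP, and the other 21 tRNA genes had too few counts. The comparisons between doses also had 0 calls of 16, beside 8.28% of all genes for SPARC 5 against SPARC 0.05, 4.8% for SPARC 5 against SPARC 0.5 and 0.179% for SPARC 0.5 against SPARC 0.05. The unadjusted counts were 3, 0 and 2 of 16. The share of all genes past the unadjusted threshold is not given here, so none of the unadjusted counts is read as a result about the members. In the test for any difference among the 4 groups 0 of 16 were called beside 11.0% of all genes, and the lowest adjusted p among the members was 0.117, that of MT-ND5. Other tools and settings made between 0 and 6 calls per comparison among the members, and those against control are given with the genes.

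The intervals show which sizes of difference the data allow in a model whose spread is shared by all 4 groups. At SPARC 5 the log2 fold changes of the 13 mRNAs ran from -0.14 (MT-ATP8) to 0.05 (MT-CO1), with a median of -0.05 beside -0.01 over all genes tested. At SPARC 0.5 their median was 0.06, beside -0.0044 over all genes, and at SPARC 0.05 it was 0.08, beside -0.0025. The 95% intervals had half-widths between 0.079 and 0.22 on the log2 scale. SPARC 5 was the most variable group for each of the 13, and its spread also entered the lower-dose intervals. MT-CYB had an SE of 0.049 in all 3 comparisons. Its coefficient of variation was 9.74% in the SPARC 5 group, beside 1.21% for controls, 4.29% with SPARC 0.05 and 0.859% with SPARC 0.5. The lower-dose intervals and absence of calls thus do not rest on those groups alone. Fits of only the groups compared made calls at both lower doses. Over the 13, the interval ends at SPARC 5 reached from a level 22.2% below control to one 16.3% above it. In sign, all 13 mRNAs had fold changes above 0 at SPARC 0.05, as had 12 of 13 at SPARC 0.5 and 5 of 13 at SPARC 5. The 3 comparisons share the control samples, and the 13 mRNAs share their libraries, so these signs are not separate observations. Without SPARC 5 replicate 2, 9 of 13 were above control at SPARC 5, with a median log2 fold change of 0.02. Leaving out replicate 1, the highest of that group, moved values down instead. MT-CO3 then had -0.115 and MT-ND3 -0.175, both called, in a fit that called 9.55% of all genes (edgeR).

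The share of all counts that came from the mitochondrial genome shows the same samples. In control the shares were 3.53%, 3.67%, 3.70%, 3.53% and 3.60% in replicates 1 to 5. At SPARC 0.05 they were 3.61%, 3.95%, 3.75%, 3.66% and 3.92%, and at SPARC 0.5 they lay between 3.67% and 3.71%. At SPARC 5 they were 3.87%, 3.04%, 3.47%, 3.46% and 3.54%. The SPARC 5 group thus held the lowest share of all 20 samples and one of the 3 highest, and all 3 treated groups overlapped the control range. Replicates 2 and 5 of SPARC 0.05 were the other two of these.

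**Figure D2:**
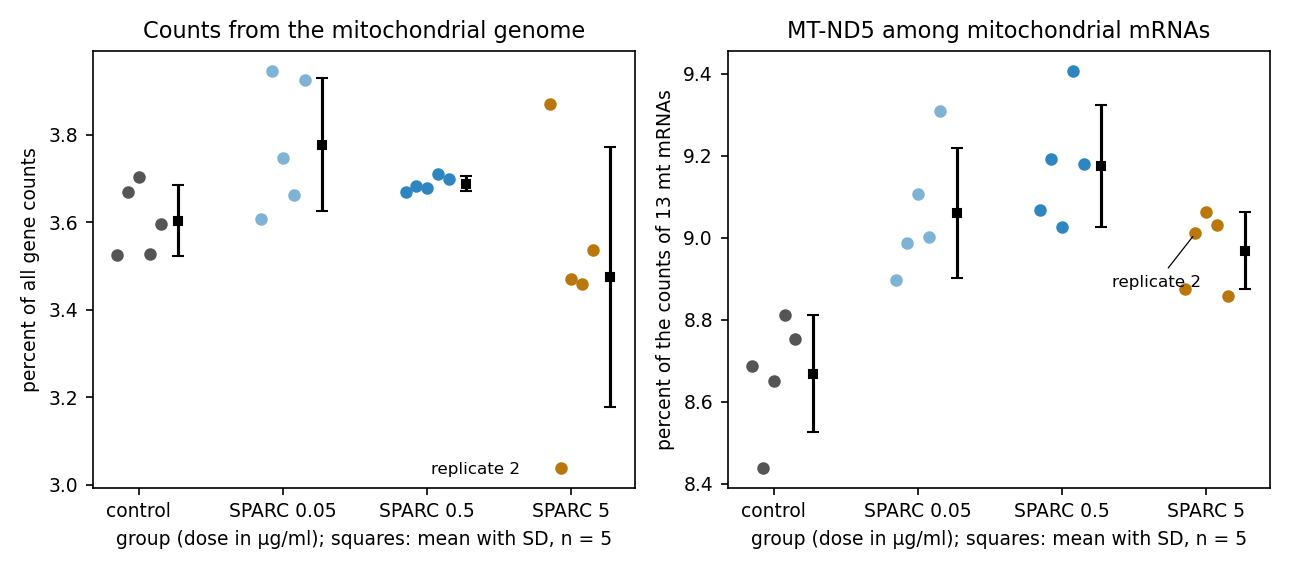
Left, percent of all gene counts that came from the mitochondrial genome, and right, MT-ND5 as percent of the counts of the 13 mitochondrial mRNAs, in each of 20 samples by group. Squares with bars are the mean and SD of 5 samples. SPARC 5 replicate 2 is lowest on the left at 3.04%, while on the right all 15 treated samples lie above the 5 control samples.

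MT-ND5, a large proton-pumping subunit of complex I, had the lowest adjusted p of the members at SPARC 0.5 and SPARC 0.05 against control and in the test for any difference. Its control samples had 2995, 3071, 3166, 3074 and 3109 CPM (3083 ± 62.5, mean ± SD, n = 5). The SPARC 0.05 samples had 3174, 3522, 3386, 3292 and 3611 CPM, and the SPARC 0.5 samples 3334, 3380, 3321, 3514 and 3424 CPM. Every sample of both doses was above every control sample. Among all genes tested, 0.95% lay wholly above control in this way at SPARC 0.05 and 1.71% at SPARC 0.5. The SPARC 5 samples had 3528, 2780, 3190, 3213 and 3177 CPM, so that replicate 2 was below all controls and the other 4 were above them.

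The log2 fold change of MT-ND5 was 0.14 ± 0.047 (SE) at SPARC 0.05, with an adjusted p of 0.312 in edgeR's test. At SPARC 0.5 it was 0.14 ± 0.047 with an adjusted p of 0.158, and at SPARC 5 it was 0.04 ± 0.047 with an adjusted p of 0.67. None passed. Without SPARC 5 replicate 2, the spread shared by all groups narrowed, and the value at SPARC 0.5 passed with an adjusted p of 0.0358 (edgeR), while SPARC 0.05 gave 0.0963 and SPARC 5 gave 0.168. With a GC and length correction added to that fit it was 0.0532, and with library sizes only 0.0828. At SPARC 0.5, 3 further settings gave a call, DESeq2's Wald test with 0.0441, limma-voom with 0.00458 and a fit of only the groups compared with 4.52e-07. The share of all genes called at SPARC 0.5 was 2.49% without SPARC 5 replicate 2, 3.57% with DESeq2, 2.28% with limma-voom and 2.32% with only the groups compared. Over all 29 planned settings the adjusted p at SPARC 0.5 ranged from 4.52e-07 to 0.327 and the log2 fold change from 0.12 to 0.15, so the size varied little between settings while the call did not hold in most. At SPARC 0.05 the range was 0.00401 to 0.547, with 2 of 29 settings past the threshold, limma-voom with 0.0143 and only the groups compared with 0.00401. Those fits called 0.292% and 0.312% of all genes. The authors' deposited tables hold 16045 genes each. They gave MT-ND5 a log2 fold change of 0.14 with an adjusted p of 0.00285 at SPARC 0.05. At SPARC 0.5 it was 0.13 with 0.00156, and at SPARC 5 it was 0.04 with 0.313.

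Within the mitochondrial mRNAs MT-ND5 also took a larger part in treated samples. In control it made up 8.69%, 8.44%, 8.65%, 8.81% and 8.75% of the counts of the 13 mRNAs. At SPARC 0.05 it made up 8.90%, 8.99%, 9.11%, 9.00% and 9.31%, and at SPARC 0.5 9.07%, 9.19%, 9.03%, 9.41% and 9.18%. The SPARC 5 samples had 8.88%, 9.01%, 9.06%, 9.03% and 8.86%. All 15 treated samples were above the highest control, SPARC 5 replicate 2 included. No other of the 13 lay wholly above or wholly below control by this measure at any dose. These parts sum to 100% and share the controls, and they are given as a description with no test.

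MT-ND4L, a small membrane subunit of complex I, had the largest fold among the 13 at both lower doses. Its control samples had 187, 198, 202, 217 and 217 CPM. The SPARC 0.05 samples had 215, 240, 238, 233 and 243 CPM, and the SPARC 0.5 samples 224, 224, 242, 229 and 222 CPM. At SPARC 0.5 every sample was above every control, and at SPARC 0.05 replicate 1 fell within the control range. The log2 fold change was 0.20 ± 0.081 at SPARC 0.05 (adjusted p = 0.462, edgeR) and 0.16 ± 0.081 at SPARC 0.5 (adjusted p = 0.406). Fitted with only the groups compared, the adjusted p was 0.00922 at SPARC 0.05 and 0.00242 at SPARC 0.5 (edgeR), both past the threshold. The authors' deposited table gave 0.19 with an adjusted p of 0.0366 at SPARC 0.05, and 0.16 with 0.0564 at SPARC 0.5. MT-ND4L shares 7 of its 297 bases with MT-ND4, whose log2 fold changes were 0.09 and 0.08 at these doses. Fitted with only control and SPARC 0.5, MT-ND4 had an adjusted p of 0.0111 and MT-CO1 of 0.0346 (edgeR).

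MT-CYB was the third gene whose SPARC 0.5 samples did not overlap control. It had 2614, 2681, 2668, 2611 and 2657 CPM in control and 2770, 2775, 2804, 2819 and 2819 CPM at SPARC 0.5. The groups were separate and both were narrow, and the log2 fold change was 0.08 ± 0.049 with an adjusted p of 0.528 in edgeR's test. Fitted with only these groups it had an adjusted p of 0.00477, and at SPARC 0.05 such a fit gave 0.00644. The SPARC 5 samples of MT-CYB spanned 2361 to 3105 CPM, the lowest being replicate 2 and the highest replicate 1.

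MT-CO3, a core subunit of complex IV, was the lowest of the 3 oxidase subunits relative to control at SPARC 5. Its control samples had 4190, 4317, 4437, 3996 and 4227 CPM, and its SPARC 5 samples 4517, 3767, 3934, 3864 and 4101 CPM. Replicate 1 was above all controls, replicates 2, 3 and 4 were below all of them, and replicate 5 lay within their range. The log2 fold change was -0.07 ± 0.038 with an adjusted p of 0.321 in edgeR's test. It passed with library sizes only (adjusted p = 0.0479), with limma-voom (0.0486) and without a filter (0.0176), where 13.9%, 10.7% and 5.16% of all genes were called. The authors' deposited table gave -0.07 with an adjusted p of 0.0305. Leaving out SPARC 5 replicate 1 moved the value to -0.12 with an adjusted p of 1.99e-05 (edgeR), and MT-ND3 then also passed at -0.17 with 0.0141, in a fit that called 9.55% of all genes. At SPARC 0.5 and SPARC 0.05 MT-CO3 had log2 fold changes of -0.01 and 0.01.

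**Figure D3:**
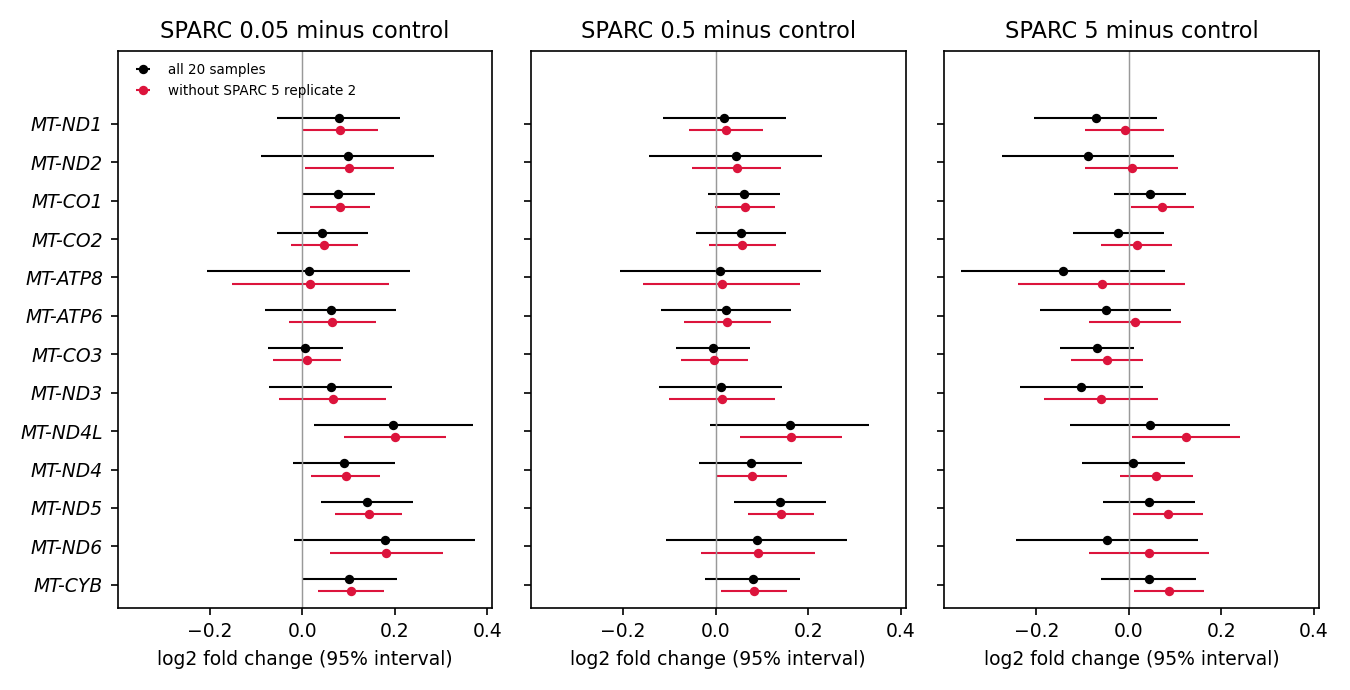
Log2 fold change against control for each mitochondrial mRNA at 3 doses, with 95% intervals, from all 20 samples (black) and without SPARC 5 replicate 2 (red). The intervals narrow without that sample at all 3 doses, and at SPARC 5 the values of the 13 mRNAs move up.

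SPARC 5 replicate 2 was the lowest of all 20 samples in each of the 13 mRNAs, by unequal amounts. MT-ND2, a complex I subunit, had 1144 CPM there and 1905, 1610, 1654 and 1627 CPM in the other 4 samples of the group, which is 32.7% below their mean. MT-ND6 was 32.0% below the mean of the other 4, MT-ATP8 30.1% and MT-ND4L 28.0%. MT-ATP6 and MT-ND1 were each 22.7% below, and MT-ND4 was 18.1% below. The smallest gaps were those of the oxidase subunits, at 14.8% for MT-CO2, 10.2% for MT-CO1 and 8.22% for MT-CO3. The remaining genes MT-CYB, MT-ND3 and MT-ND5 lay between 15.2% and 16.2%. MT-TP was 16.5% below the mean of the other 4 but was not the lowest sample, and neither rRNA was below that mean.

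Other measures of this sample follow, and not all of them set it apart from the series. Across genes, its log2 levels against the mean of all samples had a correlation with GC content of 0.10, where the other 4 SPARC 5 samples had between -0.13 and -0.05. Control samples ranged from -0.01 to 0.27 by the same measure, which takes in the value of this sample. The group mean was 0.13 in control, and -0.036, -0.061 and -0.04 at SPARC 0.05, SPARC 0.5 and SPARC 5. This measure thus also differed between control and the treated groups. Whether GC content had a part in the mitochondrial values was not tested. Over the 13 mRNAs, which share a library and a genome, the gap had a Pearson correlation of -0.547 and a Spearman correlation of -0.626 with the GC content of the gene, and of -0.465 and -0.434 with its length, given as a description. The nuclear copy MTATP6P1 was at 60.4% of the mean of the other SPARC 5 samples there and MTND2P28 at 81.3%. MTCO1P12 was at 96.2% and MTCO2P12 at 103%. Reads of a copy and of its mitochondrial gene differ at few bases, so the copies are not a separate measure.

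**Figure D4:**
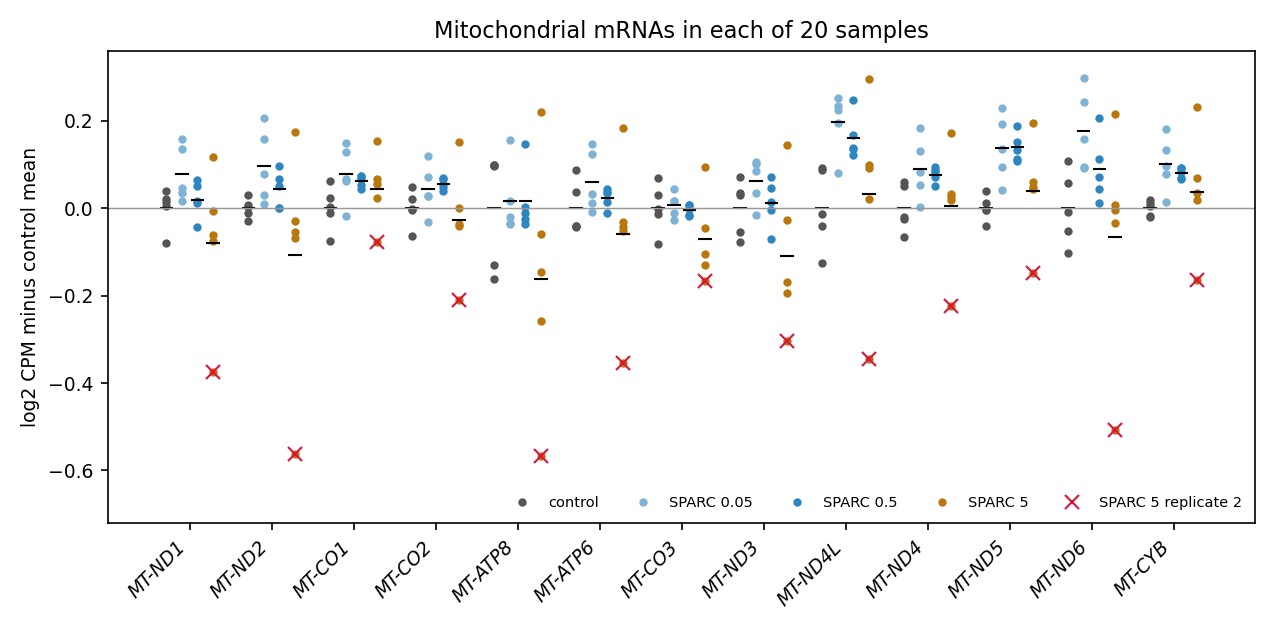
Log2 CPM of each mitochondrial mRNA minus its control mean in each of 20 samples, with short lines at group means. SPARC 5 replicate 2 (crosses) is lowest at all 13 genes, from MT-CO1 and MT-CO3, where it is nearest to the other samples, to MT-ND2, MT-ATP8 and MT-ND6.

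With the spread within the 4 groups pooled, the mitochondrial mRNAs varied more between replicates than most nuclear genes of like level. The groups differed in this spread. Over the 13 mRNAs the coefficient of variation ran from 5.79% (MT-CO1) to 19.7% (MT-ATP8) at SPARC 5. At SPARC 0.5 it ran from 0.859% (MT-CYB) to 5.37% (MT-ATP8). Nuclear genes were not compared within single groups. Pooled within groups, the coefficient of variation of MT-ND2 was 9.31%, beside a median of 2.44% over 75 nuclear genes within 2-fold of its mean. Without SPARC 5 replicate 2 these were 5.29% and 2.31%. For MT-ND6 the values were 9.93% with all samples and 6.52% without that sample, beside medians of 2.81% and 2.75%. MT-CO1, which had the highest CPM, had 4.08%, and only 8 nuclear genes were within 2-fold of its level. For all 13 the pooled value exceeded the median of nuclear genes of like level, with and without that sample.

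The rRNAs of the mitochondrial ribosome were nearly absent from the libraries, which were made after enzymatic removal of ribosomal RNA. MT-RNR1, the small-subunit rRNA, had between 7 and 185 counts per sample, and MT-RNR2, the large-subunit rRNA, between 33 and 286. SPARC 0.5 replicate 5 was highest in both, at 4.43 CPM and 6.85 CPM, beside 0.459 to 0.708 CPM for MT-RNR1 in the other 4 samples of its group. These counts are what remained after the removal and do not give the level of the rRNAs in the cells. The log2 fold changes of MT-RNR1 were -1.03 ± 0.64 at SPARC 0.05, 0.52 ± 0.592 at SPARC 0.5 and -0.45 ± 0.619 at SPARC 5, with adjusted p-values of 0.692, 0.788 and 0.757 (edgeR), and none passed. Without SPARC 0.5 replicate 5 the value at SPARC 0.5 turned to -0.66 ± 0.377 (adjusted p = 0.481, edgeR).

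Of the 22 tRNA genes, 21 were at the edge of detection. Each had 0 counts in at least 1 sample and at most 11 in any, except MT-TM (the methionine tRNA), which had 101 counts in SPARC 0.5 replicate 4 and between 0 and 3 in every other sample. MT-TP, the proline tRNA, had between 169 and 367 counts per sample and 4923 in all, while its neighbour MT-TT, the threonine tRNA, had 18 in all. MT-TP lies opposite the strand from which 12 of the 13 mRNAs are read, and reads of either strand cannot be told apart where the strand setting of the counting is not known. The group means of MT-TP were 6.53 ± 0.515 CPM without SPARC and 6.86 ± 1.24, 6.76 ± 0.896 and 6.10 ± 1.03 CPM in order of dose (SD, n = 5), and the groups overlapped.

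Nuclear copies of mitochondrial sequence, of which 408 are annotated, took 0.0882% to 0.115% of a sample's counts. Of these, 239 had a count and 56 were tested. The copy with the highest level, MTATP6P1, was at 316 CPM or 11.4% of MT-ATP6. The next were MTCO1P12 at 165 CPM, MTCO2P12 at 143 CPM, MTCO3P12 at 115 CPM and MTND4P12 at 96.4 CPM, each at 3.20% or less of the gene it resembles. Identities lay between 95.8% and 98.7%, so that reads of a mitochondrial RNA and of a copy differ at few bases, and how the authors' counting split them is not given in the sources used here. None of these 5 copies passed the test at SPARC 5, where the adjusted p of MTCO3P12 was 0.246 and that of MTATP6P1 0.871 (edgeR).

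Nuclear genes that build, transcribe, translate and complement the mitochondrial genome were taken as 7 lists with 231 genes tested. At SPARC 5, 28 of the 231 fell and 1 rose, which is 12.1% lower and 0.433% higher, beside 4.58% of all genes lower and 7.04% higher. The median log2 fold change over the 231 was -0.04, beside -0.01 over all genes tested. At SPARC 0.5, 0 rose and 2 fell, beside 1.36% of all genes higher and 0.894% lower. At SPARC 0.05, 0 rose and 1 fell, beside 0.187% and 0.0785%. Without SPARC 5 replicate 2 the counts at SPARC 5 were 1 higher and 31 lower, beside 6.53% of all genes higher and 4.7% lower. Scaled by library size alone the list counts were 0 higher and 68 lower. Under that scaling 4.36% of all genes were higher and 9.55% lower, and the median over all genes was -0.05. Of the 29 genes called at SPARC 5, 13 were called in all 31 alternative fits, and the losses of other named genes are given with them. With a GC and length correction 6.39% of all genes were higher and 4.53% lower. Calls lost in that fit include those of TRMU, ATP5F1D, NDUFS8, PPRC1 and TUFM, and most of those in the mitochondrial ribosome (MRPS34, MRPS12, MRPL4, MRPL20 and MRPL12 among them). The 12.1% lower in the main fit thus rests in part on calls that did not hold with this correction. Mean correlations of levels with GC content differed between control and the treated groups, as given above.

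In the machinery of transcription and maintenance of mitochondrial DNA, 2 of 22 fell and 0 rose at SPARC 5. Beside this list and each list below, 4.58% of all genes were lower and 7.04% higher. TFB1M, an rRNA methyltransferase related to the transcription factor TFB2M, fell from 12.0 to 9.64 CPM, a log2 fold change of -0.31 ± 0.085 (adjusted p = 0.00584, edgeR). POLG2, the accessory subunit of the mitochondrial DNA polymerase, fell from 22.2 to 18.2 CPM at SPARC 5 (log2 -0.29 ± 0.066, adjusted p = 7.98e-04) and to 18.4 CPM at SPARC 0.5 (log2 -0.27 ± 0.065, adjusted p = 0.00861). TFAM, which packages the genome and starts its transcription, was at 72.9 CPM in control and 71.3 at SPARC 5 (log2 -0.03 ± 0.04, adjusted p = 0.723). POLRMT was at 136 and 129 CPM (log2 -0.07 ± 0.037, adjusted p = 0.216), and its adjusted p was 0.0289 without SPARC 5 replicate 2.

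Among genes of mitochondrial RNA processing, modification and stability, 7 of 42 fell and 0 rose at SPARC 5. DHX30, a helicase of the RNA granules, fell from 236 to 216 CPM (log2 -0.13 ± 0.026, adjusted p = 8.27e-05, edgeR). PUS1, a tRNA pseudouridine synthase, fell from 89.7 to 79.5 CPM, and MRM1, an rRNA methyltransferase, from 24.0 to 19.8 CPM. PRORP, the nuclease that cuts the 5′ ends of mitochondrial tRNAs, fell by 0.34 on the log2 scale from 9.63 CPM (adjusted p = 0.00708). TRMU, which thiolates the wobble base of mitochondrial tRNAs, fell at SPARC 5 (log2 -0.14 ± 0.038, adjusted p = 0.00484) and at SPARC 0.5 (log2 -0.14 ± 0.038, adjusted p = 0.0273). With a GC and length correction neither call held (adjusted p = 0.0947 and 0.382), and the call at SPARC 0.5 was lost in 8 of 31 alternatives. These include leaving out control replicate 1, 2 or 3 or SPARC 0.5 replicate 1 or 5, where the adjusted p lay between 0.0517 and 0.104 (edgeR). LRPPRC, which stabilizes most mitochondrial mRNAs, was at 286 CPM in control and 274 CPM at SPARC 5, with an adjusted p of 0.113.

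In the translation apparatus, 8 of 82 mitoribosome protein genes fell and 0 rose, with MRPS25 at -0.17 ± 0.041 and MRPL12 at -0.20 ± 0.053 on the log2 scale. With a GC and length correction most of these 8 calls were lost, in a fit where 4.53% of all genes were lower. The lost calls include MRPL12 (adjusted p = 0.117), MRPS34 (0.271), MRPL4 (0.213), MRPL20 (0.0772) and MRPS12 (0.467, edgeR). MRPS25 was called in all 31 alternatives. Of the translation and assembly factors 2 of 17 fell, OXA1L, an inserter of proteins into the inner membrane, at -0.12 ± 0.032 and the elongation factor TUFM at -0.07 ± 0.025. TUFM, with an adjusted p of 0.0495, lost its call in 16 of 31 alternatives, 12 of which left out 1 sample and gave at most 0.168, without SPARC 5 replicate 1 (edgeR). Its log2 fold change after the GC and length correction was -0.02. Of the mitochondrial aminoacyl-tRNA synthetases 1 of 19 fell, EARS2 for glutamate at -0.18 ± 0.04. Among regulators of biogenesis 2 of 11 fell. These were ESRRA, a nuclear receptor that drives respiratory genes, which fell from 138 to 122 CPM (log2 -0.18 ± 0.03, adjusted p = 3.42e-06, edgeR), and PPRC1, a coactivator related to PPARGC1A, at -0.07 ± 0.026 (adjusted p = 0.0429), which lost its call in 12 of 31 alternatives, 8 of them without 1 sample and at most 0.113, without SPARC 5 replicate 3. All 5 SPARC 5 samples of ESRRA, at 119 to 127 CPM, were below the control range of 135 to 145 CPM. Among all genes tested, 2.88% lay wholly below control at SPARC 5. The coactivator PPARGC1A was not tested, with 0 to 6 counts in a sample.

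Of the nuclear-encoded core subunits that join the mitochondrial products in the respiratory chain, 6 of 39 fell and 1 rose at SPARC 5. CYC1, the cytochrome c1 of complex III that works beside MT-CYB, fell from 334 to 304 CPM (log2 -0.14 ± 0.025, adjusted p = 1.51e-05, edgeR). UQCRC1, a core protein of the same complex, rose from 249 to 269 CPM (log2 0.11 ± 0.027, adjusted p = 0.00168), but did not pass when scaled by library size alone (log2 0.06, adjusted p = 0.0966). ATP5F1B and ATP5F1D of the ATP synthase fell by 0.10 and 0.12 on the log2 scale, and COX7C of complex IV by 0.14. ATP5F1D was also the gene that fell at SPARC 0.05, by 0.13 (adjusted p = 0.0266). With a GC and length correction neither call of ATP5F1D held (adjusted p = 0.118 at SPARC 5 and 0.611 at SPARC 0.05), and the call at SPARC 0.05 was lost in 8 of 31 alternatives, 5 of which left out 1 sample (control replicate 2, 3 or 4, or SPARC 0.05 replicate 2 or 3) and gave adjusted p-values of 0.0783 to 0.206 (edgeR).

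**Figure D5:**
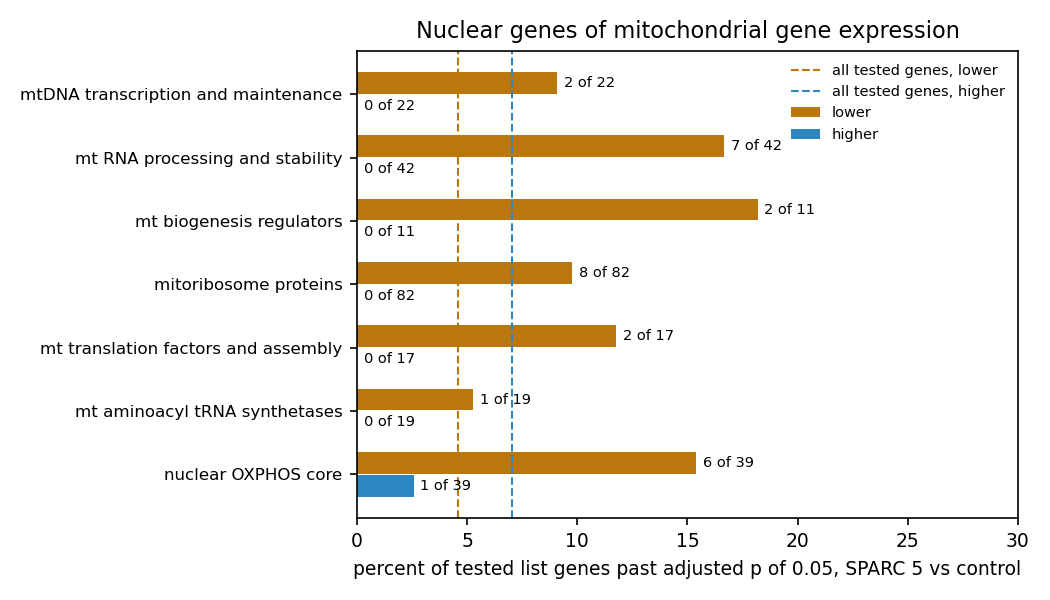
Percent of the tested genes of each of 7 nuclear lists that passed an adjusted p of 0.05 in SPARC 5 against control, lower (orange) and higher (blue), with counts beside the bars and dashed lines at the percentages over all genes tested. The mitochondrial ribosome has 8 of 82 lower, most of which did not pass with a GC and length correction. The respiratory chain subunits are the sole list with a gene that rose, a call that was lost when scaled by library size alone.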

How the data were processed

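RNA of 20 samples was sequenced after enzymatic removal of ribosomal RNA, with random-hexamer priming, per the labels' protocols. The deposited table holds whole read counts per Ensembl gene. The submitters' processing notes name STAR 2.7.9a, featureCounts 2.0.3, Salmon 1.5.2, edgeR, limma and GRCh38. The sources used here do not give the annotation release or strand setting. The authors also deposited, for each dose against control, log2 fold changes, log2 expression, p-values and adjusted p-values, per the file headers, and 14 members are in these tables.

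Of 60871 entries in the table of counts, repeats of 168 identifiers with equal counts were dropped. Genes were kept by filterByExpr (minimum count 10) of edgeR 4.0.16 in R 4.3.3 and tested with its robust quasi-likelihood F-test over 4 group means, with Benjamini-Hochberg adjustment over 22938 genes. CPM used trimmed mean of M values factors. DESeq2 1.42.0 and limma 3.58.1 (voom) were alternatives, as were other scalings, filters and sets of samples and a GC and length correction. The fit was tested on simulated data. Intervals are at 95%. Gene positions, lengths and sequences came from GENCODE v29. Copies were aligned with Biopython 1.88.

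The genes named are all MT- genes, up to 5 genes of each nuclear list with the smallest p at SPARC 5 and up to 2 at each other dose, TFAM, POLRMT, LRPPRC, PPARGC1A, and 5 nuclear copies with the largest level. MTND2P28 was named after its values were seen. The members and lists were chosen with earlier results of these data known. No molecular identifiers are mentioned in the labels, so reads of 1 molecule may be counted more than once. In all pairs of equal dose the samples differed by more than counting noise.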

Additional observations from a re-analysis of the deposited data

Results flagged for a closer look

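Each group of 5 samples was examined for a sample whose gap to its nearest neighbour was more than 0.71 of the range of the group, in 16 genes and in the mitochondrial share of counts. Of 68 groups examined, 3 held such a sample, where chance alone gives about 5% of groups. MT-RNR1 was at 4.43 CPM in SPARC 0.5 replicate 5, beside 0.459 to 0.708 CPM in the other 4. MT-ATP8 was at 88.3 CPM in SPARC 0.05 replicate 2, beside 77.3 to 80.1 CPM, and at 87.7 CPM in SPARC 0.5 replicate 1, beside 77.2 to 79.3 CPM. SPARC 5 replicate 2 did not meet this measure in any of the 16 genes. The causes were not tested.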

How the results depend on the processing

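With 0 members called in each of the 6 comparisons by the main test, any call in an alternative counts as a change. Against control, SPARC 5 had 1 member called lower (MT-CO3) with library sizes only, with limma-voom and without a filter. SPARC 0.5 had 1 called higher with DESeq2's Wald test and limma-voom (MT-ND5), 1 without a filter (MT-TM, from the sample with 101 counts, beside 1.03% of all genes) and 5 with only the groups compared (MT-ND5, MT-ND4L, MT-ND4, MT-CYB and MT-CO1). SPARC 0.05 had 1 called higher with limma-voom (MT-ND5) and 3 with only the groups compared (MT-ND5, MT-ND4L and MT-CYB), beside 0.292% and 0.312% of all genes. Between doses, SPARC 5 against SPARC 0.05 had 1 called lower with library sizes only (MT-ND3), 6 with limma-voom (MT-ND1, MT-ND2, MT-ND3, MT-ND5, MT-ND6 and MT-CO3) and 1 without a filter (MT-CO3), where 10.1%, 7.78% and 3.78% of all genes were called in either direction. SPARC 5 against SPARC 0.5 had 1 lower with limma-voom (MT-ND5) and 1 without a filter (MT-TM), beside 4.87% and 2.13% of all genes, and SPARC 0.5 against SPARC 0.05 had 1 higher without a filter (MT-TM), beside 0.155%. Leaving out 1 sample at a time gave 0 to 2 calls for SPARC 5 against control, 0 to 1 for SPARC 0.5 and 0 to 0 for SPARC 0.05, and 0 to 3, 0 to 2 and 0 to 0 between doses. The calls arose without SPARC 5 replicate 1 (9.55% of all genes called against control, 6.59% against SPARC 0.05 and 3.71% against SPARC 0.5), or, at SPARC 0.5, without SPARC 5 replicate 2. The cause was not tested, save that without a filter more genes entered the test. Of 1209 log2 fold changes of single mRNAs under alternatives, 1146 kept their direction and side of the threshold, 46 changed sign with no call, and 17 passed.

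The replicate block gave 0 calls in all 6 comparisons. Deviations of same-numbered samples had correlations between -0.034 and 0.041 over 30 pairs, with a median of 0.014. Over 120 pairs of different numbers they lay between -0.0615 and 0.077, with a median of -0.0023. Of 20 samples, 7 correlated best with their own number, and the count expected without pairing is not given here. Adding nuclear copies moved the mitochondrial share to 3.71% in control and 3.79% at SPARC 0.5. Leaving out samples moved the mean share between 3.58% and 3.62% in control, 3.73% and 3.82% at SPARC 0.05, 3.68% and 3.69% at SPARC 0.5, and 3.38% and 3.58% at SPARC 5. The 2 alternatives chosen after seeing the data, without SPARC 5 replicate 2 and with a GC and length correction or library sizes only, gave 0 calls in all 6 comparisons.

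Depth limited the 21 tRNAs that were not tested. The biological coefficient of variation, which is spread between replicates beyond counting error, was 62.9% for MT-RNR1 and 41.1% for MT-RNR2.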
